A study of Mus musculus with 2 samples.

Results

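Radial glia genes were read in E18.5 C57BL/6 mouse brain tissue as a set of 10 genes, Slc1a3, Fabp7, Vim, Hes5, Hes1, Pax6, Sox9, Ptprz1, Sox2 and Tnc. The genes were chosen by name, and all 10 were present among the 32285 genes of the count matrix. The tissue was homozygous for the R567W change in Ctcf, made in mice by CRISPR/Cas9 editing, and was profiled by SPARC-seq, an assay of polyA RNA and of Tn5-accessible DNA that share barcodes. There was 1 RNA library and 1 ATAC library of this genotype, with neither a wild-type nor a heterozygous counterpart analysed here, so nothing below measures an effect of the mutation. The sources used here do not say whether tissue of several animals was pooled.

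Each barcode joins 2 segments of 8 bases, and barcodes are read here as spots of a grid in which the first segment gives the row and the second segment the column. A spot can hold several cells, the place of rows and columns in the tissue was not given, and spots of 1 library are not replicates. Of the 1993 barcodes in the matrix, which both libraries share, 1992 spots were kept, with 8711132 UMIs (unique molecular identifiers, 1 per captured RNA molecule), a median of 4157 UMIs per spot (907 to 12442) and a median of 21705 ATAC fragments per spot (5759 to 87572). The kept spots filled 50 rows and 48 columns. With 1 library per assay no test was possible: ranges in parentheses after a level or a ratio are 95% intervals that cover counting error only, exact Poisson for levels and conditional binomial for ratios. In spots, fewer cells of a type and less RNA per cell cannot be told apart.

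Radial glia are the stem cells of the developing brain. Their cell bodies line the ventricles, a long fibre reaches the outer surface, and they divide to give neurons and later astrocytes. Notch signalling, through the DNA-binding factor RBPJ, keeps them undifferentiated by switching on the repressors Hes1 and Hes5. Sox2, Sox9 and Pax6 are transcription factors of neural progenitors. Slc1a3 (the glutamate transporter GLAST) and Fabp7 (brain lipid-binding protein) are carried by radial glia and astrocytes, Ptprz1 is a receptor phosphatase, Tnc is a glycoprotein of the extracellular matrix, and Vim is the intermediate filament vimentin. Several of these genes are also known outside neural tissue: Vim in connective tissue, Hes1 in many epithelia and Tnc in developing tendon and cartilage.

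The 10 genes together held 10279 UMIs, or 1180.0 CPM (1157 to 1203), where CPM is UMIs scaled to a library total of 1000000. A spot held a median of 5 and at most 28 of them. The genes that do not encode transcription factors held most of this RNA. Ptprz1 was listed at 345 CPM (333 to 358), Fabp7 at 199 CPM (190 to 209), Vim at 188 CPM (179 to 198), Slc1a3 at 186 CPM (177 to 195) and Tnc at 106 CPM (99.6 to 113). The intervals of Fabp7, Vim and Slc1a3 overlapped, so their order was within counting error. The transcription factors were lower: Pax6 at 57.4 CPM (52.5 to 62.7), Sox2 at 30.1 CPM (26.5 to 33.9), Hes5 at 26.1 CPM (22.8 to 29.7), Hes1 at 23.5 CPM (20.4 to 27.0) and Sox9 at 18.0 CPM (15.3 to 21.1). The intervals of neighbours from Sox2 to Hes1 overlapped, and those of Hes1 and Sox9 met at their ends. The most UMIs of a single gene in 1 spot were 11, for Fabp7, and no spot had more than 2 UMIs of Sox9.

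On mm10 the surface and matrix genes were counted over Slc1a3 (chr15:8634124-8710764, minus strand), Ptprz1 (chr6:22875502-23052916, plus) and Tnc (chr4:63959785-64047015, minus), and the genes of lipid binding and the filament over Fabp7 (chr10:57784881-57788450, plus) and Vim (chr2:13573927-13582826, plus). The transcription factors were counted over Hes5 (chr4:154960923-154962371), Hes1 (chr16:30064384-30067796), Pax6 (chr2:105668900-105697364), Sox9 (chr11:112782224-112787760) and Sox2 (chr3:34650405-34652461), all on the plus strand. Per kb of exon, Fabp7 stood far above the others at 159 CPM per kb, followed by Vim at 39.7, Ptprz1 at 24.2, Slc1a3 at 21.8, Hes5 at 19.1, Sox2 at 14.6, Tnc at 13.7, Hes1 at 11.6, Pax6 at 4.91 and Sox9 at 4.36 CPM per kb. Per kb of gene span the order was another, with Fabp7 at 55.7, Vim at 21.2, Hes5 at 18.0, Sox2 at 14.6, Hes1 at 6.90, Sox9 at 3.25, Slc1a3 at 2.43, Pax6 at 2.02, Ptprz1 at 1.94 and Tnc at 1.22 CPM per kb. Fabp7 and Vim came first on both scales, and the place of Ptprz1, the gene with most UMIs, depended on the scale. UMIs of polyA RNA need not grow with length, so neither is a corrected level. A same-strand gene, Sox2ot, spans Sox2 and held 3256 UMIs, so the Sox2 count is uncertain where reads could be assigned to either gene. Antisense partners of Pax6 (Pax6os1), Tnc (8030451A03Rik) and Hes5 (Gm20421) held 29, 236 and 0 UMIs.

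Accessibility ordered the genes differently. Promoter fragments, those reaching into the window from 1 kb upstream to 1 kb downstream of the start, are given as ppm, scaled to a total of 1000000 promoter fragments. They were most frequent at Vim, with 503 fragments (81.6 ppm, percentile 89.1 of protein-coding genes), and at Sox9, with 388 fragments (63.0 ppm, percentile 81.9). Sox9 was thus the gene with least RNA and the promoter with the next most fragments after Vim. Sox2 had 298 promoter fragments, Hes5 265, Hes1 252, Ptprz1 250, Fabp7 180, Tnc 154, Slc1a3 147 and Pax6 93. All 10 promoters together held 2530 fragments, 411 ppm (395 to 427). Slc1a3 lay at the 95.7th percentile of coding genes for UMIs and at the 47.7th for promoter fragments. It has 8 annotated starts, and fragments were counted around 1 of them.

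**Figure D1:**
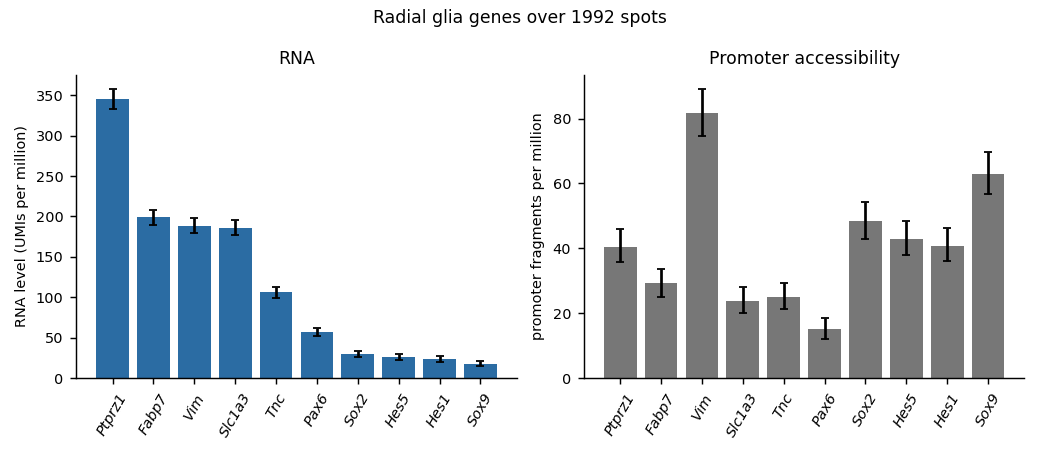
RNA level in CPM (left) and promoter fragments in ppm (right) of the 10 radial glia genes over 1992 spots, in the same gene order; bars start at 0 and lines are 95% counting intervals. Sox9 is the lowest bar for RNA, at 18.0, and the bar next to Vim in height for accessibility, at 63.0.

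The shape of the signal at the start sites also differed. Tn5 insertions within 500 bp of the start over those 1500 to 2000 bp away gave a density ratio of 7.63 at Vim, 7.09 at Sox9, 6.91 at Fabp7, 5.57 at Sox2, 4.86 at Ptprz1, 3.79 at Tnc, 3.63 at Slc1a3 and 3.08 at Hes5. At Pax6 the ratio was 1.21, so insertions were hardly concentrated at the annotated start used. At Hes1 it was 0.957, but a second peak, centred 1558 bp downstream, lay in the outer stretch that the ratio divides by. Insertions did gather at the Hes1 start. Outside muscle-rich spots the bin of 100 bp centred 150 bp upstream held 49, and that centred 350 bp upstream held 3. The densest bin lay 1050 bp upstream of the start used, which is 1 of 4 annotated for Hes1. Of the 91223 deposited peaks 52 lay in or within 10 kb of the 10 genes. Of these, 12 were at Slc1a3, 9 at Hes1, 7 at Tnc, 6 at Pax6, 4 each at Vim and Sox2, 3 each at Fabp7 and Hes5 and 2 each at Sox9 and Ptprz1. A peak covered the start site of 8 genes, and no peak covered that of Pax6, which has 24 annotated starts, or Sox2.

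RefSeq (GRCm38.p6, the build of the files) gave a promoter for 8 of the 10 genes, and Hes1 and Sox9 had no entry. The RefSeq start lay 42 bp downstream of the GENCODE start for Fabp7 and 359 bp downstream for Vim, and upstream of it for Slc1a3 and Sox2. Pax6 and Tnc each had 2 RefSeq starts, the second lying 13563 bp and 79 bp downstream of the GENCODE start. The Vim stretch lies in an annotated exon and is not shown. Sequence is shown for 4 genes whose promoter fragments differed between the spot groups described below: Hes5 at chr4:154960673-154960922 (plus strand), Fabp7 at chr10:57784673-57784880 (plus strand), Ptprz1 at chr6:22875252-22875501 (plus strand) and Tnc at chr4:64047016-64047265 (minus strand). All are written 5′ to 3′ along the gene, and capitals mark matches, on either strand, to TGGGAA (the core bound by RBPJ), GGGCGG (the GC box) or TATAAA (the TATA box).

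Hes5: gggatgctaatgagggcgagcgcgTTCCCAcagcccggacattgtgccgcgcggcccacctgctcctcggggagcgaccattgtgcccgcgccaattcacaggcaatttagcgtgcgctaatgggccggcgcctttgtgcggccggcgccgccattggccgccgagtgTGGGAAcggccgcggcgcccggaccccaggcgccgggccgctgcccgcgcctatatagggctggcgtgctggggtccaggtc
Fabp7: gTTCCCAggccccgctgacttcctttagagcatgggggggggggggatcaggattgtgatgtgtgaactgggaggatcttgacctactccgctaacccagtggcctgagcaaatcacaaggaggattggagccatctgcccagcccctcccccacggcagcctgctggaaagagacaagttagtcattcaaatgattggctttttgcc
Ptprz1: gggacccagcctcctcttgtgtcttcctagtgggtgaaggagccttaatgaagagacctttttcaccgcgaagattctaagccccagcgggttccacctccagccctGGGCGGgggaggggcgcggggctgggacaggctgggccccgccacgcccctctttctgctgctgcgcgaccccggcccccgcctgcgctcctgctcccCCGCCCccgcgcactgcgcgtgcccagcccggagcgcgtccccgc
Tnc: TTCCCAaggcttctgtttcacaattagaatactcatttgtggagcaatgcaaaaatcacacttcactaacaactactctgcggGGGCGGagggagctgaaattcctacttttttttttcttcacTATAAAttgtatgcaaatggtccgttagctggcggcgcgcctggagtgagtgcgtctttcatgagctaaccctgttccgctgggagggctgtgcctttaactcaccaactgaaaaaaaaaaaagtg

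In the 250 bases upstream of the start, Hes5 held TGGGAA on the plus strand 82 bases upstream of the start and on the opposite strand 226 bases upstream, counted to the leftmost base. At least 1 promoter of 3 of the 8 genes held TGGGAA (Hes5, Fabp7 and Tnc), against 21.6% of all 32851 promoters of the same length. GGGCGG was present in 4 of the 8 (Slc1a3, Ptprz1, Sox2 and Tnc), against 32.7%, and TATAAA in 3 (Slc1a3, Vim and Tnc), against 12.4%. TGANTCA, the AP-1 motif, was in none of the 8, against 6.75% of all promoters. Base composition separated the genes: Sox2 (72.0% GC), Hes5 and Ptprz1 (both 71.6%) had 27, 32 and 22 CpG pairs, whereas Slc1a3 (44.8% GC) had 2 and the more upstream Tnc promoter (44.8% GC) had 8. A motif match is a description of the letters and not of binding.

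To find which of these genes also rise where non-neural RNA is high, spots were ranked by the summed CPM of a marker list that contained none of the 10 genes, and the 199 spots in the top 10% of each ranking were set against the other 1793. A ratio of at least 1.5, or at most 0.667, is called higher or lower. The same call over all 12944 genes with at least 50 UMIs, or all 22021 promoters with at least 50 fragments, is given as the background. All 10 genes passed this minimum of 50 on both measures. Against the label of brain tissue, the neuronal gene Elavl3 was at 1421 CPM over all spots, and the muscle genes Myh8 (a myosin heavy chain) and Mylpf (a myosin light chain) were at 1032 and 999.9 CPM.

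Over all columns, muscle-rich spots held more Vim and Hes1 and less Fabp7 and Sox9. Vim RNA was 319.5 CPM (316 UMIs) in muscle-rich spots and 172 CPM in the others, a ratio of 1.86 (1.64 to 2.11), and its promoter fragments were 123 against 72.95 ppm, a ratio of 1.69 (1.38 to 2.07). Hes1 RNA was 36.4 against 21.9 CPM (ratio 1.66, 1.13 to 2.39, on 36 UMIs), and Hes1 had the largest promoter ratio of the 10, 2.53 (1.93 to 3.30). Fabp7 was lower on both measures, with an RNA ratio of 0.53 (0.44 to 0.65) and a promoter ratio of 0.53 (0.31 to 0.87). For these 3 genes RNA and promoter moved the same way over all columns. In the comparison within columns described below, RNA was at 0.99 for Vim, 0.97 for Hes1, 0.87 for Fabp7 and 0.34 for Sox9. Of these calls only that of Sox9 remained, against 12% of all genes higher and 13.6% lower there. The promoters of Vim, Hes1 and Fabp7 were at 1.03, 1.32 and 0.53, against 14.9% of all promoters higher and 12.1% lower.

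The other genes in the same muscle-rich spots were as follows. Sox9 RNA had a ratio of 0.36 (0.14 to 0.77, on 7 UMIs) while its promoter ratio was 1.09 (0.84 to 1.42). Tnc RNA was at 0.91 (0.73 to 1.13) and its promoter at 1.52 (1.02 to 2.21). Ptprz1 RNA was at 0.81 (0.71 to 0.91) and its promoter at 0.56 (0.36 to 0.84). Hes5 was at 0.672 for RNA (0.39 to 1.09) and at 0.66 for the promoter (0.44 to 0.96). Slc1a3, Pax6 and Sox2 stayed between 0.79 and 1.09 on both measures, with intervals that held 1. In all, 2 genes were higher and 2 lower in RNA, against 11.3% and 9.73% of all genes. For promoters, 3 were higher and 3 lower, against 10% and 14.1%. Within columns the Tnc promoter was at 0.92, the Hes5 promoter at 1.49 and the Ptprz1 promoter at 0.63.

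Muscle-rich spots differed from the others in more than muscle. They had a median of 37285 fragments against 20891, and 54.3% against 46.0% of fragments were below nucleosome length. Of the connective tissue list, 6 of 7 genes with at least 50 UMIs were higher there, as were 7 of 7 epithelial genes and 3 of 4 cycling genes, and 4 of 10 neuronal genes were lower; Elavl3 had a ratio of 0.71 and Map2, a dendritic protein, 0.69. The part of these differences in the results for the 10 genes was not tested.

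Connective-rich spots, of which 87 were also muscle-rich, gave a like order. Vim was at 1.94 for RNA (1.70 to 2.21) and 1.62 for the promoter (1.29 to 2.02), while Hes1 was at 1.45 (0.92 to 2.20) and 1.80 (1.31 to 2.43). Hes5 was the lowest of the 10, at 0.37 (0.16 to 0.73, on 8 UMIs) and 0.51 (0.31 to 0.81), followed by Sox9 RNA at 0.54 (0.23 to 1.09) and Fabp7 at 0.60 (0.48 to 0.73). The Tnc promoter was at 1.65 (1.082 to 2.45) with its RNA at 1.02. In RNA 1 gene was higher and 3 were lower, against 11.1% and 10.1% of all genes, and in promoters 3 were higher and 2 lower, against 8.96% and 15.9%. None of these calls remained in the comparison within columns described below: Vim RNA was there at 1.14, Hes5 RNA at 0.75, Sox9 RNA at 0.88 and Fabp7 RNA at 0.96, and the promoters of Vim, Hes1 and Tnc at 1.15, 1.083 and 1.21. Over all genes 8.24% were higher and 10.8% lower there in RNA, and 7.23% and 13.3% in promoters.

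In epithelium-rich spots, of which 68 were also muscle-rich, Hes1 had the highest RNA ratio. Its RNA was 50.2 against 20.5 CPM, a ratio of 2.44 (1.71 to 3.43), and its promoter ratio was 1.51 (1.06 to 2.11). Vim was at 1.52 for RNA and 1.62 for the promoter, Hes5 RNA at 0.50 (0.25 to 0.89), Sox9 RNA at 0.54 (0.24 to 1.06), and Sox2 RNA at 1.47 (1.01 to 2.09). The Pax6 promoter was at 0.34 on 4 fragments (0.09 to 0.90) while Pax6 RNA was at 1.24 (0.93 to 1.63). In RNA 2 genes were higher and 2 lower, against 10.8% and 8.44%, and in promoters 2 were higher and 1 lower, against 8.72% and 11.5%. Within columns, the comparison described below, Hes1 RNA was at 0.96, Vim RNA at 0.94 and Hes5 RNA at 1.15, so these calls ended and turned direction. Sox9 RNA was at 0.80, and the promoter ratios of Hes1 (1.07) and Vim (1.30) were below the fold. Pax6 RNA, at 1.77, and the Sox2 promoter, at 0.62, were newly past it, and the Pax6 promoter, at 0.54, stayed past it. These 1 higher gene in RNA and 2 lower promoters stood against 7.83% of all genes higher (10.6% lower) and 11.4% of all promoters lower (8.73% higher). Pituitary-rich spots showed no gene past the fold in RNA, against 6.09% higher and 9.69% lower over all genes, and 1 promoter, that of Slc1a3 at 0.50 (0.22 to 0.97), against 10.4% lower and 5.1% higher. Within columns Sox9 RNA was at 1.73 there, against 9.77% of all genes higher and 15.4% lower. The promoters of Pax6 (1.53) and Ptprz1 (1.78) were higher within columns and those of Tnc (0.29), Hes1 (0.60) and Slc1a3 (0.62) lower, against 12.3% and 16.5% of all promoters.

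Neuron-rich spots, ranked by genes such as Elavl3 and Map2, had no gene of the 10 past the fold in RNA, against 3.57% higher and 10.7% lower. This ranking separated spots weakly. The neuron list itself was 1.56 times higher in the rich spots and 1.44 times within columns, against 3.55 times over all columns for the muscle list in its own rich spots. As many as 337 spots lay within 10% of the cut, so the absence of calls cannot be set beside the muscle result. Vim was the lowest there, at 0.79 (0.65 to 0.95). Promoters spread more widely. Hes1 was at 0.30 (0.11 to 0.65, on 6 fragments) and Tnc at 0.24 (0.05 to 0.72, on 3 fragments), while Fabp7 and Pax6 were at 1.60 (0.97 to 2.54) and 1.63 (0.78 to 3.07). These 2 higher and 2 lower promoters stood against 7.79% and 13.3% of all promoters. In the comparison within columns described below the higher calls ended (Fabp7 1.39, Pax6 1.29), and Hes1 (0.42) and Tnc (0.30) stayed past the fold, against 7.53% of all promoters higher and 12.1% lower. Vim RNA was at 0.99 there, and no gene was past the fold in RNA, against 4.44% higher and 8.48% lower.

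A list of 20 further radial glia and astroglia genes, led in UMIs by Dbi (an acyl-CoA-binding protein) and Mt3 (a metallothionein), picked out a different subset. In the 199 spots richest in this list, Tnc RNA was 177 against 99.9 CPM (ratio 1.77, 1.46 to 2.14), Slc1a3 284 against 177 CPM (1.60, 1.38 to 1.85) and Fabp7 300.2 against 190 CPM (1.58, 1.37 to 1.82). Sox9 was at 1.42 (0.82 to 2.32), Hes5 at 1.35 (0.86 to 2.06) and Ptprz1 at 1.15 (1.01 to 1.30). Vim, at 0.92 (0.76 to 1.10), and Hes1, at 0.99 (0.56 to 1.63), had intervals that held 1. The 10 genes summed were at 1.31 (1.23 to 1.39). In RNA 3 genes were higher and none lower, against 4.42% and 9.26% of all genes. None of these calls remained in the comparison within columns described below, where Slc1a3 was at 1.48, Tnc at 1.45 and Fabp7 at 1.35. Over all genes 5.68% were higher and 8.17% lower there. Hes1 was at 1.43 within columns, on 17 UMIs in these spots.

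Promoters in these list-rich spots moved less clearly. Pax6 was at 1.91 (1.0005 to 3.403), Sox2 at 1.53 (1.05 to 2.17) and Fabp7 at 1.503 (0.92 to 2.36), so 3 were higher and none lower, against 5.92% and 12.5% of all promoters. Tnc and Slc1a3, both higher in RNA over all columns, were at 0.995 and 1.14 for the promoter. Within columns only the Pax6 promoter (1.97) was past the fold, against 7.03% of all promoters higher and 12.3% lower. These spots were shallower in RNA, with a median of 3381 UMIs against 4218, and only 7 of them were muscle-rich.

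**Figure D2:**
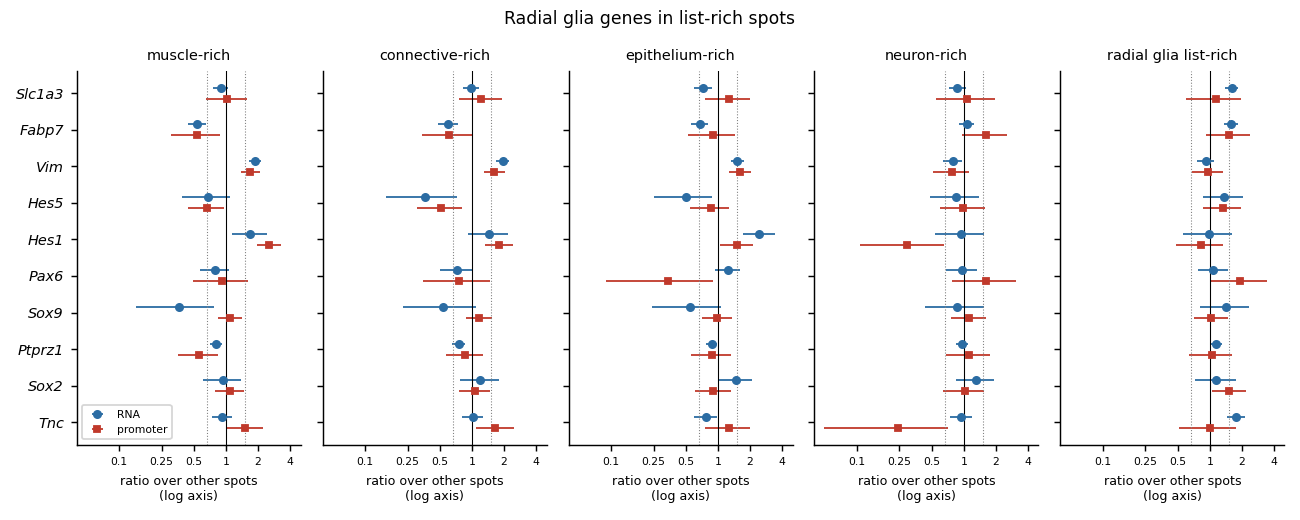
Ratio of RNA (blue circles) and of promoter fragments (red squares) of each radial glia gene in list-rich spots over the other spots, for 5 marker lists, on a log axis; lines are 95% counting intervals, the solid vertical line is 1 and dotted lines are the 1.5-fold limits. Vim and Hes1 lie to the right in muscle-rich spots, at 1.86 and 1.66 for RNA, and near 1 in spots rich in the radial glia list, where Tnc, Slc1a3 and Fabp7 lie to the right. These ratios are over all columns. Within columns Vim and Hes1 were at 0.99 and 0.97 in muscle-rich spots. In spots rich in the radial glia list Hes1 was at 1.43 within columns, on 17 UMIs and without an interval.

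The grid shows where these differences lay. Of the muscle-rich spots, 96.5% fell in 6 of the 48 columns. In these 6 columns Vim was between 273 and 394 CPM, and 4 of the other 42 columns exceeded the lowest of them, 3 of which had fewer than 20 spots; the 6 columns summed held 322 CPM against 161 CPM, a ratio of 2.01 (1.80 to 2.23). Hes1 was at 2.22 (1.63 to 3.01), but unevenly, from 13.7 to 94.9 CPM, and 27 of its 205 UMIs came from 1 of the 6. Fabp7 was between 89.9 and 161 CPM in the 6 columns, with a ratio of 0.54 (0.46 to 0.63). Hes5 was at 0.44 (0.26 to 0.70), Sox9 at 0.54 (0.30 to 0.91), Ptprz1 at 0.77 (0.70 to 0.86) and Slc1a3 at 0.81 (0.70 to 0.93). Promoters followed for Vim (1.88), Hes1 (2.36), Fabp7 (0.61), Hes5 (0.57) and Ptprz1 (0.63), while the promoters of Tnc (1.65), Sox9 (1.10) and Pax6 (0.54, 0.28 to 0.96) differed from their RNA, which for Tnc and Pax6 was at 0.87 and 0.90.

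Inside these 6 columns, spots that were muscle-rich and those that were not held the same Vim level. The muscle list itself was 2.13 times higher in the 192 muscle-rich spots than in the other 87, but Vim was 322 CPM in both (ratio 0.9998, 0.83 to 1.21) and Fabp7 was 114 and 123 CPM (0.93, 0.68 to 1.28). Hes1 was 37.0 and 54.7 CPM (0.68, 0.40 to 1.14). Comparing spots only within their own column, over all columns with both kinds, put the muscle-rich ratio at 0.99 for Vim, 0.97 for Hes1, 0.87 for Fabp7 and 0.34 for Sox9. The higher Vim and Hes1 RNA and the lower Fabp7 RNA of muscle-rich spots were thus not seen within columns. There the spots not called muscle-rich also held muscle RNA. The 87 such spots of the 6 columns had 8095 CPM of the list, and all 1793 spots not called muscle-rich, these 87 among them, had 4831 CPM. Whether a column differs by tissue or by its barcode cannot be told apart. Within columns 12% of all genes were higher and 13.6% lower in RNA, and 14.9% and 12.1% of promoters; of the 10 genes, Hes5 (3.27, with few UMIs) was higher and Sox9 and Pax6 (0.64) lower in RNA. Inside the 6 columns these were at 4.63 (1.10 to 41.3), 0.42 (0.13 to 1.28) and 0.76 (0.47 to 1.23). Over all columns with both kinds the promoter ratios of Fabp7 (0.53) and Ptprz1 (0.63) were past the fold, but inside the 6 columns they were 0.68 (0.31 to 1.55) and 0.69 (0.36 to 1.36). The Vim promoter was at 1.03 within columns and 0.97 (0.71 to 1.34) inside the 6, and the Hes1 promoter at 1.32 and 1.54 (0.98 to 2.51). Within columns the promoters of Hes5 (1.49) and Tnc (0.92) turned direction, and the Pax6 promoter, with no fragment in the 87 other spots of the 6 columns, gave no usable ratio.

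For spots rich in the radial glia list, the 3 genes higher in RNA fell below the fold within columns, Slc1a3 from 1.60 to 1.48, Tnc from 1.77 to 1.45 and Fabp7 from 1.58 to 1.35. Hes1 RNA, at 0.99 over all columns (0.56 to 1.63), was at 1.43 within them, close to Slc1a3 and Tnc, and Vim at 1.082. Hes1 had only 17 UMIs in these spots, against 207 for Slc1a3 and 129 for Tnc. Ratios within columns were computed without intervals. None of the 10 was past the fold in RNA, against 5.68% higher and 8.17% lower over all genes, and 1 promoter was higher (Pax6, 1.97), against 7.03% higher and 12.3% lower.

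Over all 44 columns with at least 20 spots, each gene had a wide range. Vim ran from 95.7 to 394 CPM with a median of 164, Fabp7 from 89.9 to 467 with a median of 191, Slc1a3 from 95.7 to 343 with a median of 180.4, Ptprz1 from 193 to 506 with a median of 339.6, and Tnc from 15.9 to 317 with a median of 97.7 CPM. Hes5, Hes1, Pax6 and Sox9 were at 0 UMIs in at least 1 of these columns. A single column, 16th in the muscle ranking, held the highest level of 4 genes: Slc1a3 at 343 CPM, Fabp7 at 467, Tnc at 317 (72 UMIs) and Sox2 at 66.0 (15 UMIs). Its summed level was 1963 CPM, above the 1489 of the next column, while Vim was at 202 CPM and Sox9 at 13.2 CPM there, against medians of 164 and 16.1 CPM.

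**Figure D3:**
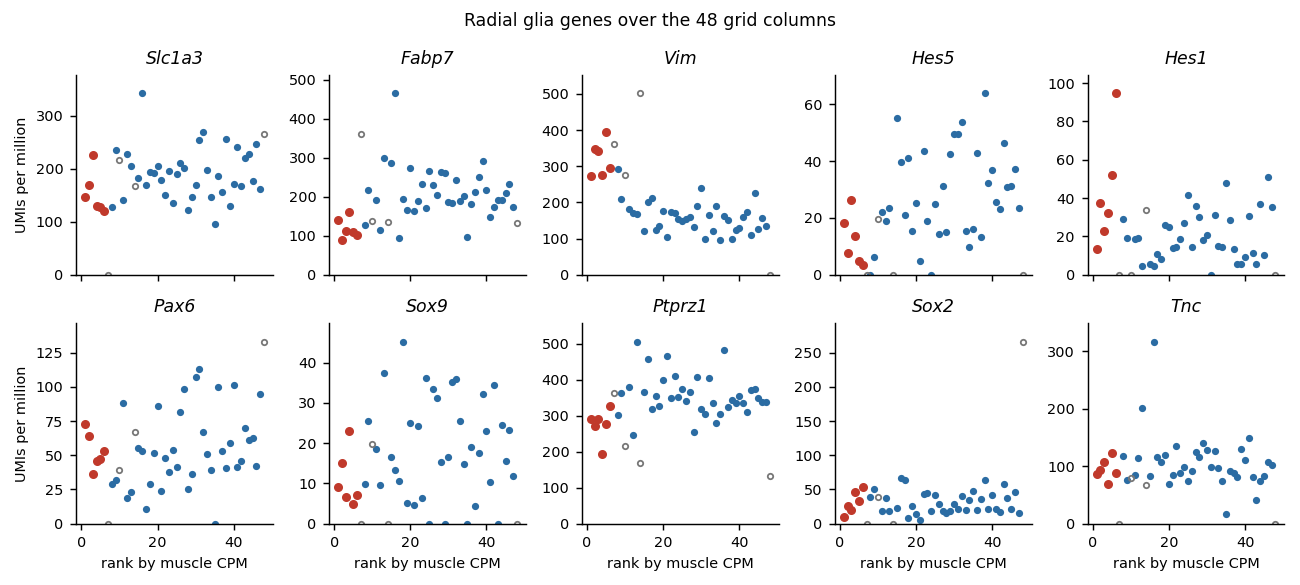
RNA level (CPM) of each radial glia gene in the 48 grid columns, ordered by muscle CPM from highest to lowest; red points are the 6 columns that hold most muscle-rich spots, blue points other columns with at least 20 spots, open grey points the 4 columns with fewer. The red Vim points sit between 273 and 394, and the isolated high points of Slc1a3, Fabp7 and Tnc are 1 column.

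Spread beyond counting noise was larger over columns than over rows. The variance over columns divided by the Poisson variance was 5.65 for Vim, 4.55 for Fabp7, 3.44 for Tnc, 2.62 for Hes1, 2.27 for Slc1a3, 2.18 for Ptprz1, 2.10 for Pax6, 1.80 for Sox2, 1.73 for Hes5 and 1.36 for Sox9. Genes within 25% of the same UMI sum had medians of 1.496 for Vim, 1.51 for Fabp7 and 1.36 for Tnc. Sox9 and Ptprz1 lay closer to such genes, whose medians were 1.27 and 1.74, at percentiles 61.0 and 67.8. Over the 50 rows the values were lower for each gene. Fabp7 was at 1.71 and Pax6 at 1.69, against medians of 1.07 and 1.05 for genes of like UMI sum (percentiles 97.3 and 98.95), and Vim at 1.09 against 1.07. Over single spots all 10 were between 0.99 and 1.24. Among genes of like UMI sum this put Pax6 at percentile 98.7, Tnc at 98.5, Fabp7 at 97.6, Vim at 97.5 and Slc1a3 at 94.1. Ptprz1 was at 86.4, Hes1 at 70.5, Sox2 at 66.4, Hes5 at 32.8 and Sox9 at 20.1.

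Co-variation between the genes was modest, and how it compared with that of other genes depended on thinly filled columns. Over all 48 columns the 45 pairs had a median Pearson correlation of log2(CPM + 10) of 0.13 (-0.49 to 0.53), and 33.3% of pairs reached 0.3. All 8767 genes with 150 to 3100 UMIs had a median of 0.21 and 37.7% of pairs at 0.3 or more, so on this measure the radial glia genes did not stand above other genes. Without the 4 columns of fewer than 20 spots the median of the 10 was 0.15, with 26.7% of pairs at 0.3 or more. That of all genes fell to 0.0019 with 3.98%, so in these columns both values of the 10 were above those of all genes. The genes compared were not matched to the 10 on UMI sum, and the part of depth in this difference was not tested. The highest pairs in these 44 columns were Fabp7 with Ptprz1 (0.53), Slc1a3 with Hes5 (0.49), Fabp7 with Hes5 (0.48) and Vim with Hes1 (0.45).

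Some pairs were negative in these 44 columns, with 13.3% of the 45 pairs below -0.3. The share of all gene pairs, again not matched on UMI sum, was 3.38%. Over all 48 columns the shares were 4.44% and 9.84%. Hes1 was negatively correlated with Fabp7 (-0.45), Hes5 (-0.44) and Slc1a3 (-0.35), and Vim with Fabp7 (-0.42), Hes5 (-0.40) and Ptprz1 (-0.33). Over all 48 columns Hes1 with Slc1a3 (0.05) and Vim with Ptprz1 (0.14) changed sign. Hes1 with Fabp7 (-0.39), Vim with Fabp7 (-0.12) and Vim with Hes5 (-0.11) stayed negative. Spearman correlations over the 48 columns were negative for all of these pairs (-0.34 to -0.22). Over rows Vim with Hes5 was at 0.20, Hes1 with Slc1a3 at 0.11 and Hes1 with Fabp7 at 0.06. Vim with Fabp7 and with Ptprz1 was at -0.12 and -0.07 over rows. The correlation of the 2 Notch targets Hes1 and Hes5 was weaker over all 48 columns (-0.19; Spearman -0.22) and had the other sign over rows (0.17). With the muscle list, Vim had a correlation of 0.77 over the 44 columns and Hes1 of 0.31, and Fabp7, Ptprz1 and Hes5 of -0.51, -0.45 and -0.43. Over all 48 columns these were 0.59, 0.25, -0.41, -0.22 and -0.35. With the neuronal list Vim was at -0.79 and Hes5 at 0.49 over the 44 columns, and at -0.59 and 0.52 over all 48. With the further radial glia list the 44 columns put Hes5 at 0.57, Fabp7 at 0.56, Slc1a3 at 0.45, Tnc at 0.33, Hes1 at -0.36 and Vim at -0.44. Over all 48 columns these were 0.57, 0.58, 0.11, 0.24, -0.26 and -0.23. When muscle-rich and connective-rich spots were left out, the median of the 45 pairs was 0.25 over 46 columns, against 0.15 for all genes. Slc1a3 with Fabp7 was at 0.79 and Vim with Fabp7 turned from -0.12 over all 48 columns to 0.46. Thin columns were kept in this setting. With all spots, Slc1a3 with Fabp7 was at -0.07 over the 48 columns and at 0.41 over the 44. Over the 50 rows the median of the 45 pairs was 0.07, with 1 pair at 0.3 or more, against 0.0036 and 4.399% for all genes. All points share 1 library, and depth per column varied.

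**Figure D4:**
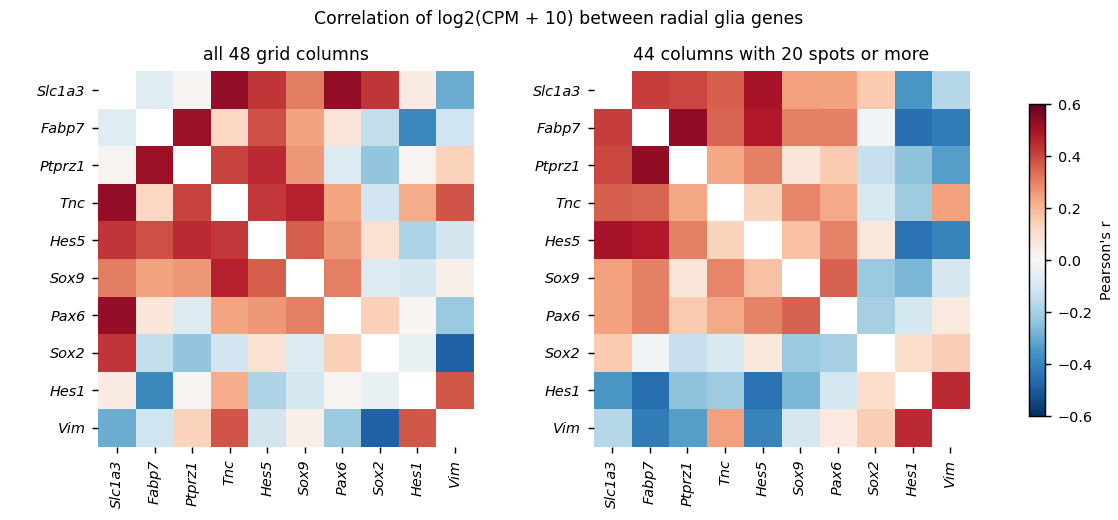
Pearson correlation of log2(CPM + 10) between each pair of radial glia genes over all 48 grid columns (left) and over the 44 columns with at least 20 spots (right); red is positive, blue negative, and the diagonal is blank. On the right, Hes1 and Vim form a block that is blue against Fabp7 and Hes5 and red with each other (0.45).

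Among 3979 genes with at least 500 UMIs, those most like the summed radial glia genes over the 48 columns were Dbi (0.52), Ptn (0.51), Phgdh (0.46), Abhd8 (0.46) and Gm3764 (0.46). Ptn, pleiotrophin, is a known ligand of the Ptprz1 receptor, and Phgdh is an enzyme of serine synthesis. In the 44 columns with at least 20 spots Phgdh came first, at 0.63. For single genes the closest were Cpe for Fabp7 (0.67, and 0.71 in 44 columns), Nfib for Sox9 (0.66 and 0.61), Rrbp1 for Vim (0.90 and 0.71), Rab11b for Tnc (0.86 and 0.55) and Tmem108 for Slc1a3 (0.89 and 0.42). Each of these was picked as the highest of 3979 genes over the 48 columns. A lower value in the 44 columns therefore does not by itself measure the part of the thin columns. Picked in the 44 columns, the closest were Gsk3b for Slc1a3 (0.66), Tpm2 for Vim (0.81) and Qk for Tnc (0.63). They were again Cpe for Fabp7 and Nfib for Sox9. The closest genes to Hes5, Hes1, Pax6, Ptprz1 and Sox2 (Serinc1, Dnah2, Eif4e, Mtss1 and Actr1a) had correlations of 0.61 to 0.69 and of 0.30 to 0.55 in 44 columns.

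The pathway around Hes1 and Hes5 was described through 17 Notch pathway genes, of which 13 had at least 50 UMIs. The ratios in this paragraph and the next are over all columns, with no comparison within columns for these genes. In muscle-rich spots 3 of the 13 were higher and none lower, against 11.3% and 9.73% of all genes, with a median ratio of 1.17 against 0.97 over all genes tested; Numb, an inhibitor of Notch, was at 1.17 (0.93 to 1.46) and Rbpj at 1.04 (0.80 to 1.33). The 3 higher genes, named after their values were seen, were the receptor Notch2 (1.81, 1.34 to 2.42), the ligand Jag1 (1.59, 0.97 to 2.50) and the glycosyltransferase Lfng (1.62, 0.91 to 2.71). Of these only Notch2 had an interval above 1. In spots rich in the radial glia list Lfng (1.97), the ligand Dll3 (1.62) and Mfng (1.52) were higher, again 3 of 13 with none lower, against 4.42% and 9.26% of all genes, with a median ratio of 1.16 against 0.99 over all genes tested, while Numb was at 1.05 and Rbpj at 1.13. Of these 3 intervals only that of Lfng (1.078 to 3.37) lay above 1.

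Relatives of the 10 genes gave a further comparison within families. Of 12 such genes 9 had at least 50 UMIs. Des, the muscle member of the intermediate filament family of Vim, was at 3.42 (3.14 to 3.72) in muscle-rich spots, and Ptprg, the closest relative of Ptprz1 here and the relative with most UMIs, at 0.87 (0.79 to 0.97). In spots rich in the radial glia list, whose ranking used the relatives Slc1a2 and Nes, Ptprg was at 1.04 (0.93 to 1.16) and Des at 0.77 (0.66 to 0.90). Of the 20 further radial glia genes, 17 had at least 50 UMIs, and in muscle-rich spots 2 of them were higher and 3 lower, against 11.3% and 9.73% of all genes, with a median ratio of 0.88, against 0.97 over all genes tested. Mt3 was at 0.66 (0.57 to 0.77) and Dbi at 0.88 (0.79 to 0.97) there.

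Accessible sites around the genes were uneven between the same spots. The peak ratios here and in the next paragraph are over all columns. They were not compared within columns, and the share of all peaks past the fold was not computed. At the peak over the Vim start (chr2:13573635-13574471), with 658 cut sites, the muscle-rich ratio was 2.03 (1.70 to 2.40). Around Hes1 the 9 peaks ran from 1.05 to 3.28, the highest being the peak over the start, chr16:30064964-30065733 (2.45 to 4.37). By contrast the peak over the Fabp7 start (chr10:57784295-57785194) was at 0.48 (0.28 to 0.75) and its upstream peak (chr10:57783109-57784005) at 0.29 (0.14 to 0.54). At Ptprz1 the peak over the start (chr6:22875152-22875945) was at 0.48 (0.30 to 0.72). The median of all 48648 peaks with at least 100 cut sites was 0.96 in muscle-rich spots and 0.98 in spots rich in the radial glia list.

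Peaks away from the start also differed. Downstream of Slc1a3, the peak at chr15:8631932-8632966 was at 0.23 in muscle-rich spots (0.08 to 0.51) and at 2.16 in spots rich in the radial glia list (1.32 to 3.41), and an intragenic peak at chr15:8659415-8660284 was at 0.41 (0.25 to 0.65) and 1.44 (0.96 to 2.10). The peak over the Slc1a3 start was at 1.34 in muscle-rich spots (0.91 to 1.92), and that over the Hes5 start at 0.54 (0.36 to 0.77). A peak upstream of Hes5 (chr4:154952592-154953425) was at 0.42 (0.20 to 0.77) and 2.87 (1.85 to 4.34), and another upstream of Sox2 (chr3:34642256-34643104) at 0.58 (0.35 to 0.92) and 1.90 (1.24 to 2.81). Within Tnc the peak at chr4:63980361-63981253 was at 0.20 (0.05 to 0.52) in muscle-rich spots, whereas that over its start (chr4:64046574-64047511) was at 1.62 (1.19 to 2.18). These peaks were named after their values were seen.

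**Figure D5:**
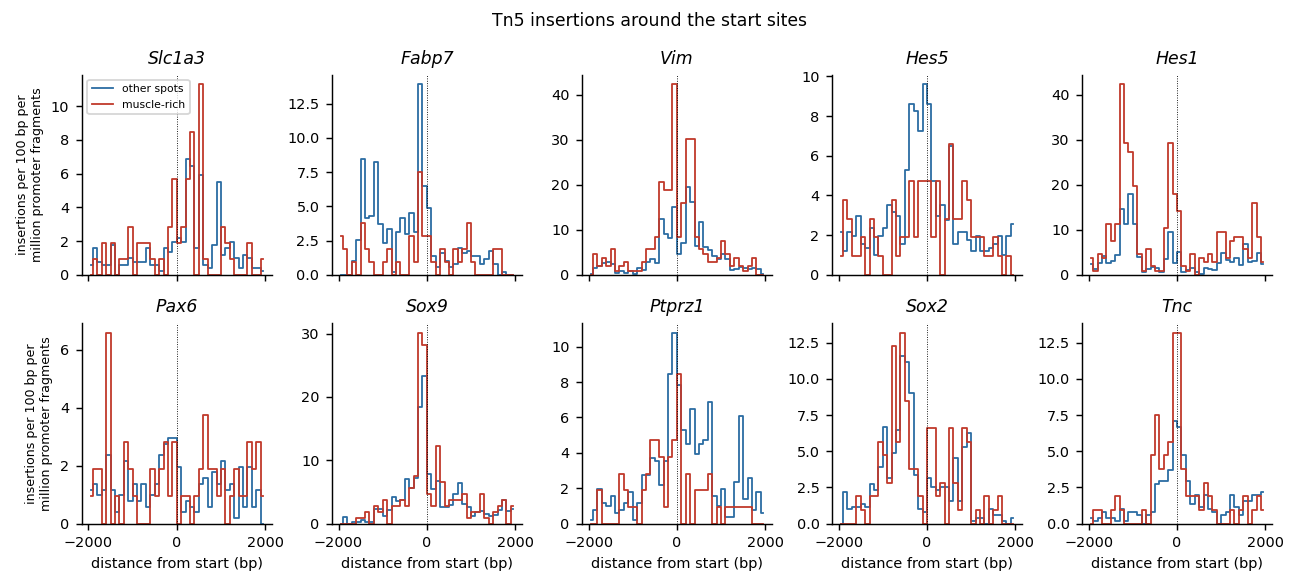
Tn5 insertions per 100 bp bin, scaled to 1000000 promoter fragments of the spot group, from 2000 bp upstream to 2000 bp downstream of the start site of each radial glia gene, in muscle-rich spots (red) and other spots (blue). Within 500 bp of the start red is above blue in sum at Vim and Hes1 and below it at Fabp7, Hes5 and Ptprz1; at Hes1 both groups have their tallest bin over 1000 bp upstream.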

How the data were processed

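The authors processed both libraries with cellranger-arc 2.0.1 on mm10 (GRCm38), per the file headers, and the submitters' processing notes also name Seurat 4.0. The deposited matrix holds raw UMI counts per gene and cut-site counts per peak, and the fragment file holds deduplicated fragments; further filtering is not given in the sources used here. Kept spots had between 500 and 6000 detected genes, with mitochondrial UMIs no higher than 20%. The 10 genes, the marker lists and the comparisons were chosen with earlier results of these data known. Levels are UMIs scaled to 1000000; 1 kb on each side of the GENCODE M21 start defined a promoter. Correlations used log2(CPM + 10). Named genes were the 10 genes, the 2 genes of a list with most UMIs, and the most similar genes; exceptions are marked. Alternatives covered spot filters, totals, windows, shares of spots, Leiden clusters, and rows for columns. Ranking by the further radial glia list and comparing within columns were added after the data were seen. Ratios and intervals were tested on simulated data. Tools were Python 3.11.15, scipy 1.17.1 and scanpy 1.11.5.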

Additional observations from a re-analysis of the deposited data

Results flagged for a closer look

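The fragment file held 507 barcodes outside the matrix, which no comparison above uses. They carried 193 promoter fragments of the 10 radial glia genes, of 509654 promoter fragments in these barcodes. That was 379 ppm (327 to 436), against 411 ppm in the kept spots, so signal at these promoters was present there at a like rate. Vim (41 fragments) and Sox9 (36 fragments) again held the most, and Pax6 (5 fragments) the least. Of all fragments of these barcodes 8.74% fell in promoters, against 13.1% in kept spots.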

How the results depend on the processing

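The summed RNA level was 1244 CPM without Gm42418 in the total, and the summed promoter level was 371 ppm with 500 bp and 442 ppm with 2 kb on each side of the start. Comparison within columns, chosen after seeing the data, changed several counts of genes past the fold. In muscle-rich spots promoters past the fold went from 6 to 3, 1 of them the Pax6 promoter with no usable ratio. In connective-rich spots 4 genes in RNA and 5 promoters both went to 0. In epithelium-rich spots RNA went from 4 to 1, where the 1 was Pax6 (1.77) and none of the 4, and to 1 (Hes1) with the top 20% of spots. In pituitary-rich spots RNA went from 0 to 1, as with a minimum of 2000 UMIs and at Leiden resolution 2.0, and to 4 with the top 5%. Promoters there went from 1 to 5, and to 2 with either 500 bp or 2 kb. Neuron-rich promoters went from 4 to 2, as with 500 bp. In spots rich in the radial glia list RNA went from 3 to 0, and to 5 with the top 5%, and promoters from 3 to 1. Shares of all genes past the fold were computed for the comparison within columns and not for the other alternatives, whose counts have no background beside them. Among ratios past the fold, these changed direction within columns: in muscle-rich spots Vim RNA (0.99), Hes1 RNA (0.97), Hes5 promoter (1.49) and Tnc promoter (0.92); in connective-rich spots Fabp7 promoter (1.02); in epithelium-rich spots Vim RNA (0.94), Hes5 RNA (1.15) and Hes1 RNA (0.96). Ratios not past the fold also crossed 1, such as Hes5 RNA in muscle-rich spots (0.672 to 3.27). Of 400 alternative RNA ratios 346 stayed within their interval, as did 226 of 240 promoter ratios; the cause was not tested. The median correlation of 0.13 was 0.25 without muscle-rich and connective-rich spots and 0.014 over single spots. Leiden clustering gave no neuron or radial glia cluster at any setting, and so no value for those lists. No paired analysis was possible because each assay had 1 library. Depth limited Sox9, Hes1 and Hes5 most, with 157, 205 and 227 UMIs.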

Other observations

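Spots were also ranked by endothelial, mural, choroid plexus, erythroid, oligodendrocyte precursor and cycling lists. For these lists no comparison within columns was made and the share of all genes past the fold was not computed, so calls have no background. In mural-rich spots all 10 genes lay between 0.85 and 1.29 in RNA, with intervals above 1 for Slc1a3 (1.20, 1.02 to 1.41), Fabp7 (1.19, 1.01 to 1.39) and Vim (1.18, 1.003 to 1.39). Hes1 RNA was at 1.54 in choroid plexus-rich spots (0.98 to 2.31) and at 1.53 in erythroid-rich spots (0.98 to 2.31), both with intervals that held 1. Of the choroid plexus-rich spots 78.9% fell in 6 columns, and Tnc RNA was at 0.76 in these spots (0.58 to 0.98). The Tnc promoter was at 1.59 in erythroid-rich spots (0.94 to 2.56). In cycling-rich spots Vim was at 1.28 (1.09 to 1.49) and Sox9 at 0.47 (0.19 to 1.002, on 7 UMIs). In spots rich in oligodendrocyte precursor genes all 10 were between 0.78 and 1.09 in RNA, with intervals that held 1.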
